A study of Mus musculus with 8 samples.

Results

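The 41 genes described here build and run the contractile machinery of striated muscle: the sarcomere, the membrane triad that releases calcium onto it, and a few proteins that fuel it or anchor it to the cell surface. They were taken by symbol from the table of gene expression of an inguinal white adipose tissue (iWAT) study, 41 of 54532 genes, and every symbol was found once. The tissue came from males kept on a high-fat diet (HFD), with 4 libraries from mice whose adipocytes lack the transcription factor KLF10 (KLF10AKO) and 4 from wild type (WT) mice. The single comparison, KLF10AKO against WT, asks which transcripts of the pad differ when adipocytes lack KLF10. The HFD, the sex and the fat pad were common to both groups. No source used here states the promoter that drove the deletion, the age of the mice or how many animals gave each library. P-values here reflect variation among libraries, which may be technical. Levels are in FPKM, fragments per kilobase of gene scaled to library size by the authors, and are therefore per length. Klf10 itself stood at 9.39, 9.68, 9.75 and 9.59 FPKM in KLF10AKO replicates 1 to 4, against 16.7, 18.2, 16.7 and 21.1 FPKM in WT replicates 1 to 4, lower in all 4 KLF10AKO libraries. Its log2 change was -0.88 as deposited and 0.79 with libraries scaled to 14 adipocyte markers. That scaling moved the median of all genes to 1.53.

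In a muscle fibre, myosin thick filaments pull on actin thin filaments that are held at the Z-disc, while titin spans from the Z-disc to the M-band and keeps the filaments in register. A voltage sensor in the transverse tubule opens the ryanodine receptor, calcium leaves the sarcoplasmic reticulum, and a calcium pump returns it with the help of the buffer parvalbumin in fast fibres. Creatine kinase, muscle glycogen phosphorylase and AMP deaminase keep ATP supplied. Skeletal muscle is the main site of most of these proteins, white adipocytes are not known for a sarcomere, and desmin and dystrophin also occur in vascular and other non-skeletal cells.

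Many muscle promoters carry an E-box (CAGCTG in the form bound by MyoD family factors), a CArG box for serum response factor or a box for MEF2. RefSeq promoter sequences of build GRCm38.p6 were found for 28 of the 41 genes. They are shown for Acta1, the most abundant of the 41 (chr8:123894776-123895025, minus strand), for Mylpf, which was higher in each KLF10AKO library (chr7:127211358-127211607, plus strand), for Klhl41, which was high in KLF10AKO replicates 1 to 3 but not in replicate 4 (chr2:69669870-69670119, plus strand), and for Dmd, whose FPKM was lower in each KLF10AKO library although its change turned positive after scaling to adipocyte markers (chrX:82948620-82948869, plus strand). Each run holds the 250 bases before the annotated start, 5′ to 3′ on the gene's strand, with the matched motifs in capitals.
Acta1: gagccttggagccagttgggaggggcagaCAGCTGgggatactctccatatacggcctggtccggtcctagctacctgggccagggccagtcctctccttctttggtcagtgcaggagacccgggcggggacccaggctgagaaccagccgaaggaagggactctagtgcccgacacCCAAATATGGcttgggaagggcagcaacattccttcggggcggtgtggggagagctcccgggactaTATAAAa
Mylpf: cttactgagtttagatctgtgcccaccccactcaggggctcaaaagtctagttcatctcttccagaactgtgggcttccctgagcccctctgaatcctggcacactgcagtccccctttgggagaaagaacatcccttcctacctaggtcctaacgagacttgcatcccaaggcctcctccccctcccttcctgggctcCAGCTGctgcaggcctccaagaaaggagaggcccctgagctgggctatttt
Klhl41: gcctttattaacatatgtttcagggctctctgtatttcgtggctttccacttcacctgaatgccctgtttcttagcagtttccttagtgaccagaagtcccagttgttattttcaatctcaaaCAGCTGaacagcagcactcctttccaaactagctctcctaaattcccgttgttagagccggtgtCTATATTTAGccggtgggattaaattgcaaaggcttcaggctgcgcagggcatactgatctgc
Dmd: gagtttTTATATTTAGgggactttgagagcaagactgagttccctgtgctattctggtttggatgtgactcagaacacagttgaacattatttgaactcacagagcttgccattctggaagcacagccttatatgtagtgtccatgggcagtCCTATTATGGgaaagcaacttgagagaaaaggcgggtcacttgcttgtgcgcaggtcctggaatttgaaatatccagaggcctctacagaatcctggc
In these runs Acta1 holds an E-box, a CArG box and a TATAAA, Mylpf holds an E-box, Klhl41 holds an E-box and a MEF2 box, and Dmd holds a CArG box and a MEF2 box. Among the genes shown, those with different behaviour across the libraries thus share motifs. Another annotated start of Dmd, with its 250 bases at chrX:85048045-85048294, had none of these motifs. Over 35 windows of the 28 genes, from 250 bases before the start to 50 after it, CAGCTG was present in 18 (51.4%), against 16.3% of the 32851 windows of all genes in the RefSeq table. A CArG box was present in 20% of the member windows and in 1.63% of all windows. A MEF2 box was present in 17.1% and 3.19%. TATAAA on the gene's strand was present in 5.71% and 8.32%. E-box, CArG and MEF2 matches were sought on both strands, and windows of alternative starts of a gene overlap in part. These matches describe letters in a window, with no test of binding.

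The 41 genes took a larger share of the reads in 3 of the 4 KLF10AKO libraries than in any WT library, and a smaller share in the fourth. They held 1.16%, 0.878%, 2.02% and 0.0199% of all reads in KLF10AKO replicates 1 to 4, against 0.0406%, 0.0409%, 0.0385% and 0.0469% in WT replicates 1 to 4. Exact Clopper-Pearson 95% intervals are narrow, for example 0.0192% to 0.0206% in KLF10AKO replicate 4, and cover counting error only, since the reads carry no molecular identifiers. The mean was 1.02% ± 0.826 in KLF10AKO and 0.0417% ± 0.00361 in WT (SD, n = 4 each), with a two-sided exact permutation p of 0.143, where the smallest that 4 against 4 libraries allow is 0.0286. Without KLF10AKO replicate 4 the KLF10AKO mean was 1.35%, with an exact permutation p of 0.0571, the smallest that 3 against 4 allow. Summed levels of the 41 genes were 5195, 3972, 9275 and 60.6 FPKM in KLF10AKO replicates 1 to 4, against 221, 219, 213 and 262 FPKM in WT replicates 1 to 4. In bulk tissue, fewer cells of a type and less RNA per cell cannot be told apart.

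**Figure D1:**
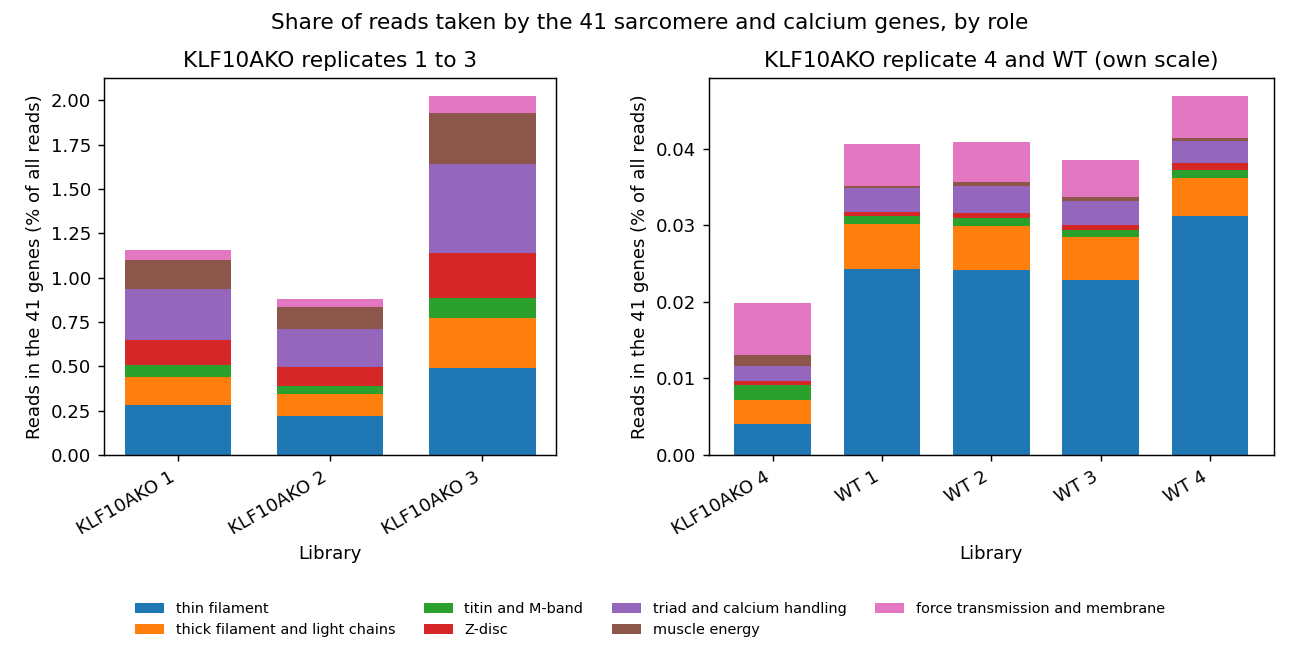
Stacked bars give the share of all reads (%) in the 41 genes by role, with KLF10AKO replicates 1 to 3 on the left panel and KLF10AKO replicate 4 and the 4 WT libraries on the right panel, which has its own scale. Replicates 1 to 3 reach 0.878% to 2.02% with all 7 roles visible, while replicate 4 (0.0199%) and WT (0.0385% to 0.0469%) stay low and the WT bars are mostly thin filament.

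The thin filament held the gene with the highest level of the 41 in each of the 8 libraries. Acta1, skeletal alpha-actin, the body of the thin filament, stood at 1517, 1187, 2724 and 20.9 FPKM in KLF10AKO replicates 1 to 4, against 169, 163, 160.5 and 213 FPKM in WT replicates 1 to 4. Replicates 1 to 3 lay above the WT range and replicate 4 below it. In KLF10AKO it ranked 18, 29, 4 and 2521 among all genes, and in WT it ranked between 176 and 285, so this actin was also well expressed in WT pads. Its log2 change was 1.70 (SE 1.33), which did not pass (limma adjusted p = 0.273). Klhl41, a kelch protein that stabilises the thin filament, stood at 13.99, 10.7, 22.1 and 0.0672 FPKM in KLF10AKO, against 0.106, 0.0238, 0.105 and 0.162 FPKM in WT. Neb, the giant ruler nebulin, stood at 6.89, 5.08, 12.7 and 0.171 FPKM in KLF10AKO, against 0.146, 0.115, 0.0902 and 0.128 FPKM in WT. The leiomodins, which nucleate actin filaments, followed the same pattern. Lmod2 had 0 reads in WT and in KLF10AKO replicate 4, with 3.98, 2.99 and 6.28 FPKM in the other KLF10AKO libraries, so its KLF10AKO mean was at least 134-fold higher than 3 reads spread over the 4 WT libraries would give. Lmod3 reached at most 10.2 FPKM in KLF10AKO and 0.120 FPKM in WT. Actc1, the cardiac actin, stayed at or under 1.12 FPKM in KLF10AKO and 0.165 FPKM in WT and was not tested. Of the 5 thin filament genes tested, 4 were called higher, where 39.4% of the 16012 genes tested were, and Acta1 was not. Those 4 passed the filter on low values (a mean of at least 0.5 FPKM over the 8 libraries) through KLF10AKO alone, so they had to differ.

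Among myosin partners, the fast light chains were abundant in KLF10AKO replicates 1 to 3, and the slow ones were near 0 in each library. Mylpf, the fast regulatory light chain, stood at 509, 384, 882 and 7.68 FPKM in KLF10AKO, against 1.13, 1.02, 0.816 and 1.28 FPKM in WT, above the WT range in each KLF10AKO library. It rose by 6.96 on the log2 scale (SE 1.29, limma adjusted p = 9.79e-04). Myl1, the fast essential light chain, stood at 326, 258, 595 and 4.81 FPKM in KLF10AKO, against 29.6, 28.6, 28.6 and 24.3 FPKM in WT. Like Acta1, it had a clear WT level and fell below it in KLF10AKO replicate 4, and its log2 change of 2.18 (SE 1.29) did not pass (limma adjusted p = 0.155). Mybpc2, the fast myosin-binding protein C, stood at 72.1, 50.1, 127 and 2.28 FPKM in KLF10AKO, against 0.0185, 0, 0.0369 and 0 FPKM in WT, and rose by 6.04 (SE 1.03, limma adjusted p = 5.91e-04). Its slow counterpart Mybpc1 rose as well, with 0.401 to 4.04 FPKM in KLF10AKO and 0.0266 to 0.0444 FPKM in WT. Myl2 and Myl3, the light chains of slow and cardiac muscle, had at most 3 reads in any library and were not tested. Of the 4 genes tested in this role, 3 were called higher, against 39.4% of all genes tested, and 2 of the 3 (Mybpc1 and Mybpc2) passed the filter through KLF10AKO alone.

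The M-band genes showed the same split between a gene with a WT level and genes without one. Myom1, a myomesin that cross-links thick filaments, stood at 8.69, 6.52, 15.2 and 0.330 FPKM in KLF10AKO, against 0.999, 1.02, 0.924 and 1.03 FPKM in WT. Its log2 change of 1.85 (SE 0.78) did not pass (limma adjusted p = 0.0559). Myom2, the myomesin of fast fibres, stood at 6.43, 5.32, 11.9 and 0.00640 FPKM in KLF10AKO, against 0, 0, 0.00753 and 0 FPKM in WT, and it rose (2.99, SE 0.85, limma adjusted p = 0.0109). Ttn, titin, ranged from 0.120 to 6.63 FPKM in KLF10AKO and from 0.00206 to 0.0105 FPKM in WT. It rose, and its lowest KLF10AKO library lay above the WT range. Of the 3 genes tested in this role, 2 were called higher, against 39.4% of all genes tested. Both (Myom2 and Ttn) passed the filter through KLF10AKO alone, so they had to differ.

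**Figure D2:**
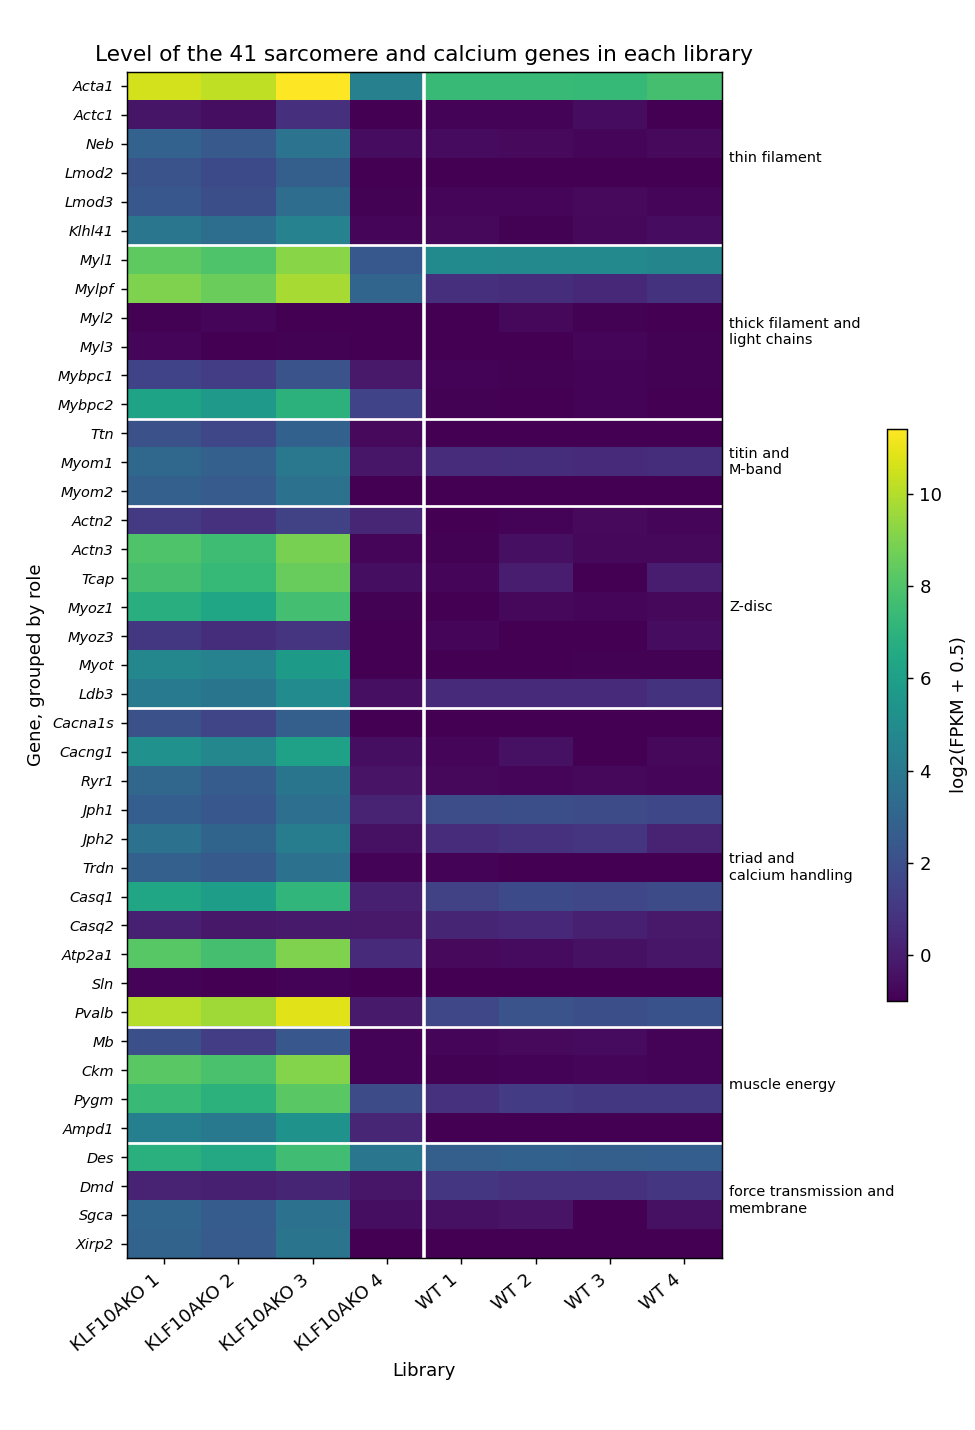
Colour gives log2(FPKM + 0.5) of the 41 genes (rows, grouped by role) in the 8 libraries (columns, KLF10AKO left of WT). KLF10AKO replicates 1 to 3 are bright in most rows (Acta1 at 1187 to 2724 FPKM), while replicate 4 is dark except in a few, such as Acta1 (20.9 FPKM) and Des (14.3 FPKM), and Acta1, Myl1 and Des are the brightest rows of WT.

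Most Z-disc genes were near 0 in WT and in KLF10AKO replicate 4, with the exceptions of Ldb3 in WT and Actn2 in replicate 4. Actn3, the alpha-actinin of fast fibres, stood at 252, 191, 467 and 0.0783 FPKM in KLF10AKO, against 0.0231, 0.208, 0.0921 and 0.0941 FPKM in WT. Tcap, the telethonin that caps titin, stood at 214, 161, 364 and 0.179 FPKM in KLF10AKO, against 0.0706, 0.507, 0 and 0.503 FPKM in WT. Myoz1, a calsarcin that binds calcineurin, stood at 113, 81.7, 207 and 0.0300 FPKM in KLF10AKO, against 0, 0.0953, 0.0704 and 0.108 FPKM in WT. For these 3 genes replicate 4 lay within the WT range and the other KLF10AKO libraries far above it. Ldb3, a PDZ and LIM protein that binds alpha-actinin, stood at 16.9, 13.5, 31.6 and 0.223 FPKM in KLF10AKO, against 0.932, 0.877, 0.960 and 1.24 FPKM in WT. It passed narrowly (2.54, SE 1.02, limma adjusted p = 0.0479) while its replicate 4 lay below WT. Actn2, another alpha-actinin of striated muscle, stood at 1.63, 1.22, 2.22 and 0.762 FPKM in KLF10AKO, against 0, 0.0475, 0.123 and 0.0538 FPKM in WT. It was the Z-disc gene whose replicate 4 stood above WT, and its log2 change was 1.76 (SE 0.23). Myot and Myoz3 reached 53.8 and 1.52 FPKM in KLF10AKO and at most 0.0308 and 0.157 FPKM in WT, and both had 0 reads in KLF10AKO replicate 4. The 7 Z-disc genes were tested and called higher, against 39.4% of all genes tested, but the 6 other than Ldb3 passed the filter through KLF10AKO alone.

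In the triad, Pvalb and Atp2a1 were the most abundant genes in KLF10AKO replicates 1 to 3. In replicate 4 Atp2a1 was the highest triad gene, while Pvalb lay under Jph1 and Casq1. Atp2a1 was low in WT. Pvalb, parvalbumin, the soluble calcium buffer of fast fibres, stood at 1028, 786, 1825 and 0.435 FPKM in KLF10AKO, against 2.64, 4.04, 3.39 and 3.86 FPKM in WT. It was the second highest of the 41 genes in KLF10AKO replicates 1 to 3, and below WT in replicate 4. Atp2a1, the fast calcium pump SERCA1, stood at 287, 213, 524 and 0.880 FPKM in KLF10AKO, against 0.116, 0.138, 0.230 and 0.333 FPKM in WT, with a log2 change of 6.87 (SE 1.65, limma adjusted p = 4.50e-03). Atp2a1 passed the filter through KLF10AKO alone, so it had to differ. Casq1, the calcium store protein calsequestrin of fast muscle, stood at 78.9, 61.3, 142 and 0.581 FPKM in KLF10AKO, against 2.20, 2.90, 2.63 and 3.04 FPKM in WT. Its change of 3.216 (SE 1.34) missed the threshold (limma adjusted p = 0.0547). Casq2, the cardiac and slow form, overlapped between groups, at 0.559, 0.366, 0.423 and 0.414 FPKM in KLF10AKO and 0.734, 0.857, 0.560 and 0.398 FPKM in WT, and was not called (-0.26, 95% interval -0.63 to 0.11, limma adjusted p = 0.177).

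The junctophilins, which hold the tubule and the reticulum together, had a WT level. Jph1 stood at 6.12, 4.65, 10.9 and 0.658 FPKM in KLF10AKO, against 3.30, 3.48, 3.03 and 2.77 FPKM in WT, and its change of 0.34 (95% interval -1.003 to 1.69) was not called (limma adjusted p = 0.615). Jph2 stood at 11.8, 7.45, 18.8 and 0.226 FPKM in KLF10AKO, against 1.01, 1.22, 1.36 and 0.624 FPKM in WT (1.996, SE 0.89, limma adjusted p = 0.0688). In both, KLF10AKO replicate 4 lay under each WT library. The voltage sensor subunit Cacna1s had 0 reads in WT and in KLF10AKO replicate 4, and its KLF10AKO mean of 3.09 FPKM was at least 414-fold higher than the level that 3 reads in the 4 WT libraries together would give. Cacng1, the gamma subunit of that channel, reached 69.4 FPKM in KLF10AKO and 0.241 FPKM in WT. The release channel Ryr1 ranged from 0.293 to 13.8 FPKM in KLF10AKO and from 0.0624 to 0.101 FPKM in WT. Trdn, triadin, which anchors calsequestrin to that channel, ranged from 0.0424 to 12.02 FPKM in KLF10AKO and from 0 to 0.0358 FPKM in WT. Sln, sarcolipin, an inhibitor of the pump, had 2 reads over the 4 KLF10AKO libraries and 0 over the 4 WT libraries. Of the 10 triad genes tested, 6 were called higher, against 39.4% of all genes tested. Of these 6, Pvalb had a WT level and the other 5 (Cacna1s, Cacng1, Ryr1, Trdn and Atp2a1) passed the filter through KLF10AKO alone.

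The 4 energy genes stood above each WT library in KLF10AKO replicates 1 to 3. Ckm, muscle creatine kinase, stood at 304, 227, 548 and 0.0389 FPKM in KLF10AKO, against 0.0230, 0.0413, 0.0686 and 0.0468 FPKM in WT. In replicate 4 that is 2 reads, within the 1 to 3 reads of the WT libraries. Pygm, glycogen phosphorylase of muscle, stood at 165, 126, 299 and 3.10 FPKM in KLF10AKO, against 1.19, 1.76, 1.49 and 1.52 FPKM in WT. Ampd1, AMP deaminase of muscle, stood at 19.9, 15.9, 39.1 and 0.767 FPKM in KLF10AKO and had 0 reads in WT, so its KLF10AKO mean was at least 1372-fold higher than the same WT floor. Pygm and Ampd1 were above WT in each KLF10AKO library, unlike Ckm. Mb, the oxygen carrier myoglobin of oxidative fibres, stayed low, at 3.64, 1.87, 4.73 and 0.0380 FPKM in KLF10AKO and at most 0.134 FPKM in WT. The 4 genes of this role were called higher, against 39.4% of all genes tested, and Ckm, Ampd1 and Mb passed the filter through KLF10AKO alone.

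Force transmission genes went in both directions. Des, the intermediate filament desmin that ties Z-discs together, stood at 117, 89.2, 192 and 14.3 FPKM in KLF10AKO, against 6.21, 6.81, 6.21 and 5.95 FPKM in WT, and rose by 3.45 (SE 0.67, limma adjusted p = 1.36e-03). Dmd, dystrophin, which couples the cytoskeleton to the membrane, stood at 0.638, 0.580, 0.734 and 0.333 FPKM in KLF10AKO, against 1.45, 1.21, 1.23 and 1.46 FPKM in WT. It fell by 0.79 (SE 0.14, limma adjusted p = 8.74e-04), the single member called lower, although its change was 0.29 when libraries were scaled to adipocyte markers, a scaling that moved the median of all genes to 1.53. Sgca, alpha-sarcoglycan of the dystrophin complex, stood at 7.78, 5.65, 12.2 and 0.196 FPKM in KLF10AKO, against 0.232, 0.277, 0 and 0.235 FPKM in WT. Xirp2, an actin-binding protein of intercalated discs and muscle attachment sites, stood at 7.18, 5.34, 13.1 and 0 FPKM in KLF10AKO, against 0.00559, 0.01004, 0 and 0.00568 FPKM in WT. Sgca and Xirp2 both rose, while KLF10AKO replicate 4 stood within the WT range. Of the 4 genes tested in this role, 3 were called higher and 1 lower, against 39.4% and 34.9% of all genes tested. Sgca and Xirp2 passed the filter through KLF10AKO alone, so they had to differ.

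**Figure D3:**
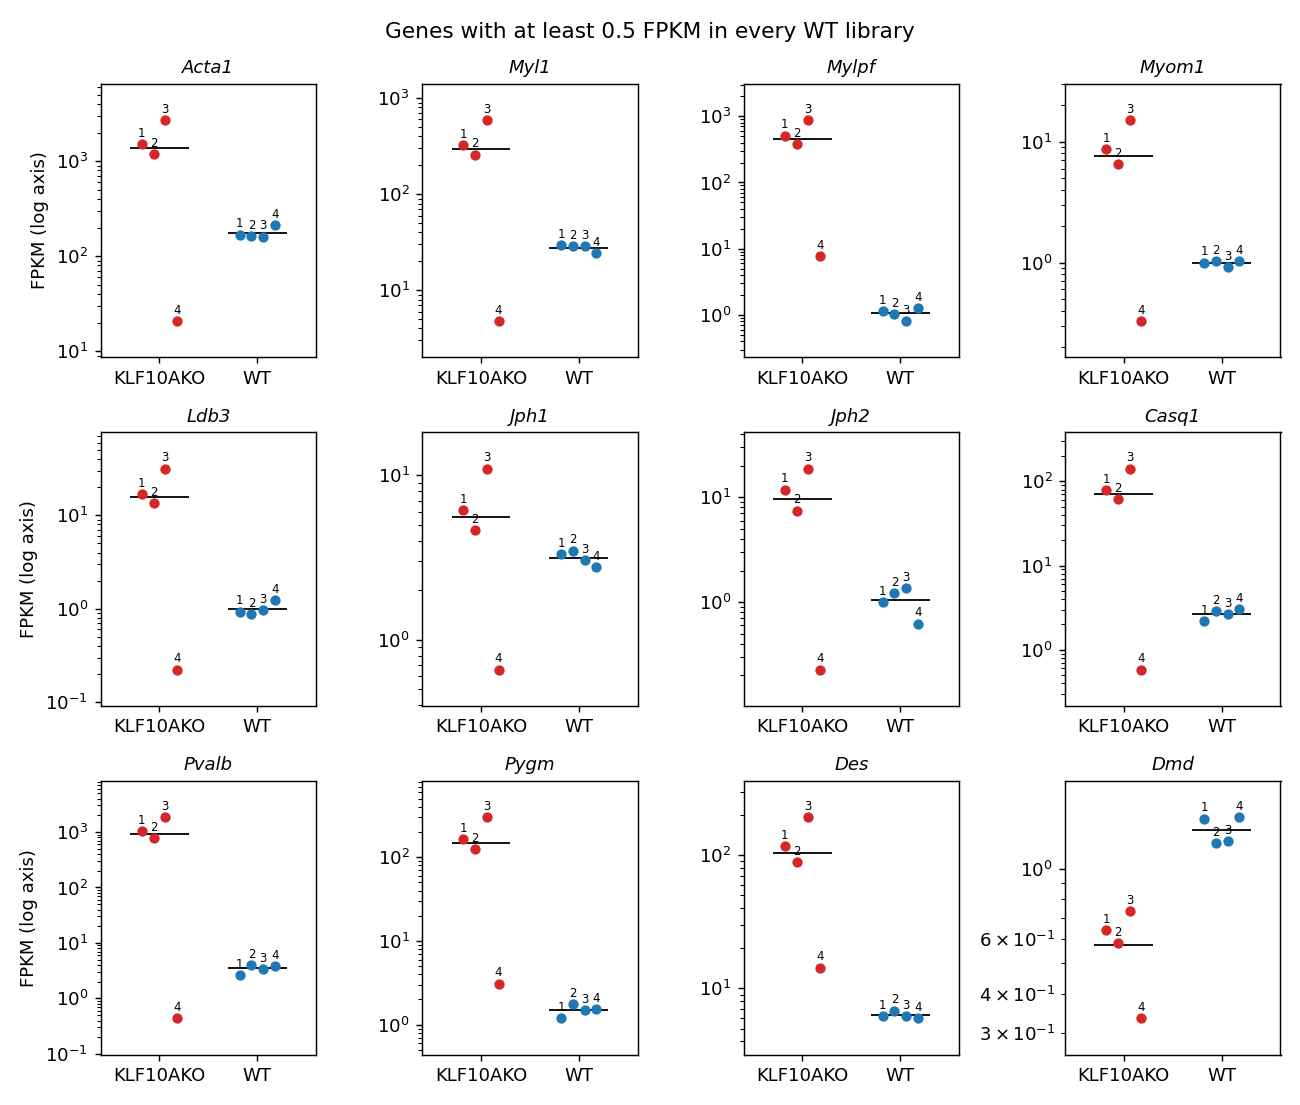
Points are FPKM (log axis) of each library, numbered by replicate, for the 12 genes with at least 0.5 FPKM in each WT library, with KLF10AKO left of WT and bars at the mean. In Mylpf, Pygm and Des replicate 4 stands above the WT points (Des at 14.3, against 5.95 to 6.81 FPKM), while in the other 9 genes it stands below them (Acta1 at 20.9, against 160.5 to 213 FPKM).

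Over the 41 genes, 37 passed the filter of a mean of at least 0.5 FPKM over the 8 libraries, and Actc1, Myl2, Myl3 and Sln did not. Of the 37, 29 were called higher and 1 lower (limma adjusted p under 0.05), where 39.4% of the 16012 genes tested were called higher and 34.9% lower. The median log2 change was 2.98 over the 37 genes (3.05 with the 3 genes at 0 in WT set at their lower bounds) and 0.05 over all genes tested. Of the 37, 24 passed the filter through the KLF10AKO libraries alone and so had to differ, and their calls support nothing. Of the 13 with a WT mean of at least 0.5 FPKM, 5 were called higher (Mylpf, Ldb3, Pvalb, Pygm and Des), 1 lower (Dmd) and 7 not called. All 3 of KLF10AKO replicates 1 to 3 lay above each WT library for 36 of the 41 genes, and all 4 KLF10AKO libraries for 12. The exact two-sided permutation p reached its minimum of 0.0286 for 13 of the 41 genes, those 12 and Dmd. Of those 12, 9 passed the filter through KLF10AKO alone. The shares of all genes separated in these ways were not measured, so these counts have no background. A limma-voom fit on reads recovered from the FPKM values called 4 of the 37 genes higher (Mybpc1, Actn2, Pygm and Des) and Dmd lower. Over all genes that fit called 7412 of 16012 higher and 4395 lower, so the members' share called higher lay under that of all genes. With libraries scaled to adipocyte markers 36 of the 37 were called higher and 0 lower. Counts over all genes depended on scaling: 6305 were higher and 5588 lower as deposited, 7935 and 4394 in TPM, 4947 and 7067 after quantile normalization, and 14250 and 143 when scaled to adipocyte markers.

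The calls rested heavily on which libraries entered. Pvalb and Ldb3 lost their calls in each of the 7 fits that left out a library other than KLF10AKO replicate 4 (limma adjusted p of 0.071 to 0.1009 for Pvalb and 0.0783 to 0.121 for Ldb3). Mb lost its call without KLF10AKO replicate 1 (0.0530), and Myoz3 without WT replicate 2 (0.0552) or 3 (0.0547), while it was under the filter without KLF10AKO replicate 1, 2 or 3. Without KLF10AKO replicate 4, 35 of the 37 genes were called higher and 1 lower, where 37.6% of 15950 genes were called higher and 34.3% lower, and the median log2 change was 3.94. With replicate 4 alone set against the 4 WT libraries, and assumed to vary like them, 10 were called higher and 9 lower, where 32.4% of 16012 genes were called higher and 29.7% lower, and the median was -0.02. The 10 were Mylpf, Mybpc1, Mybpc2, Ttn, Actn2, Ryr1, Atp2a1, Pygm, Ampd1 and Des. The 9 were Acta1, Myl1, Myom1, Ldb3, Jph1, Jph2, Casq1, Pvalb and Dmd, which are among the 12 genes with at least 0.5 FPKM in each WT library. Acta1 was 8.42-fold lower in replicate 4 than the WT mean, Pvalb 7.998-fold, Myl1 5.77-fold and Dmd 4.01-fold. By range alone, replicate 4 stood above the WT libraries for 12 genes, within their range for 18 and below it for 11. Replicate 4 was set apart with its values known, so these counts only describe it. The share of all genes above, within or below the WT range in replicate 4 was not measured.

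**Figure D4:**
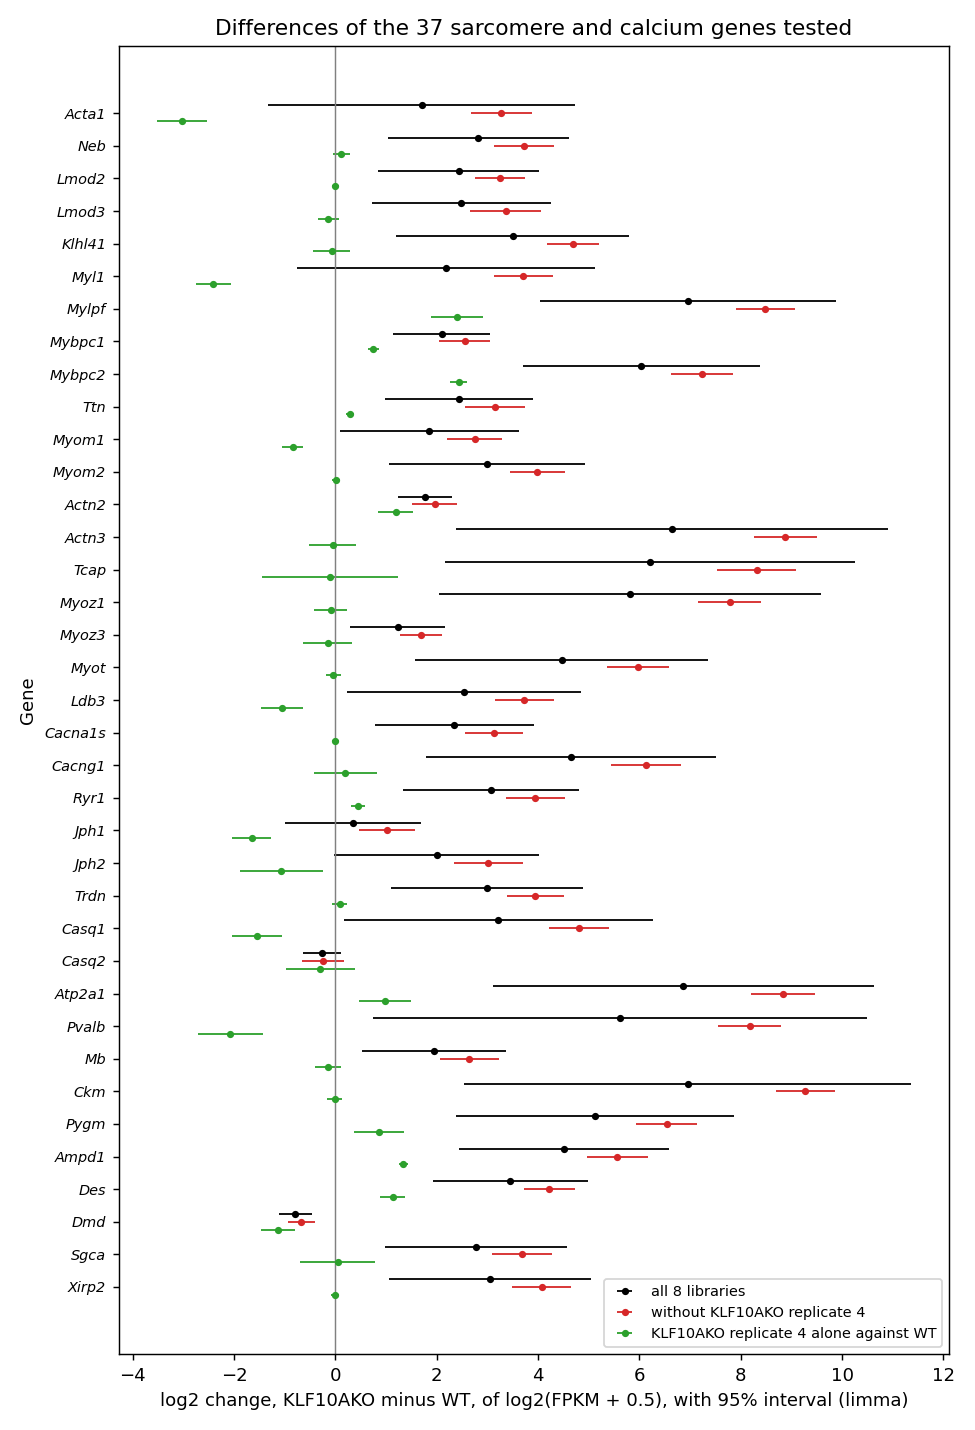
Points and bars are limma log2 changes, KLF10AKO minus WT, on the log2(FPKM + 0.5) scale with 95% intervals for the 37 genes tested, from all 8 libraries (black), without KLF10AKO replicate 4 (red) and with that replicate alone against WT (green). Acta1 sits at 1.70, 3.28 and -3.03 in these fits, and Mylpf at 6.96, 8.49 and 2.40.

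Within KLF10AKO replicates 1 to 3 the most abundant of the 41 genes kept nearly the same proportions, and some low ones did not. Acta1 made up 29.2%, 29.9% and 29.4% of their summed FPKM, Pvalb 19.8%, 19.8% and 19.7%, Mylpf 9.80%, 9.66% and 9.51%, and Ckm 5.86%, 5.71% and 5.90%. Among low members, Casq2 made up 0.0108%, 0.00921% and 0.00456%, Myoz3 0.0292%, 0.0259% and 0.0144%, and Dmd 0.0123%, 0.0146% and 0.00792%. Over 35 genes with at least 50 reads in each of the 3, replicate 3 held a median of 1.79 times the level of replicate 1 (quartiles 1.67 and 1.83), and replicate 2 held 0.752 times (quartiles 0.732 and 0.780). Dmd differed least between replicates 3 and 1, at 1.15 times, and Lmod3 most, at 2.22 times. In 37 of the 41 genes the order was replicate 3, then 1, then 2.

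Replicate 4 had another make-up. Acta1 was 34.5% of its summed FPKM, Des 23.7% and Mylpf 12.7%, while Pvalb was 0.719% and Ckm 0.0642%. As a percentage of replicate 1, the 35 genes ranged from 0 (Lmod2) through a median of 1.32 to 52.2 (Dmd), with Actn2 at 46.8, Mybpc1 at 17.5, Des at 12.2 and Ckm at 0.0128. Its ratio to the other libraries thus differed widely between genes. WT had its own make-up: Acta1 was 74.5% to 81.1% and Myl1 9.26% to 13.4% of the summed FPKM, with Des at 2.27% to 3.11%.

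**Figure D5:**
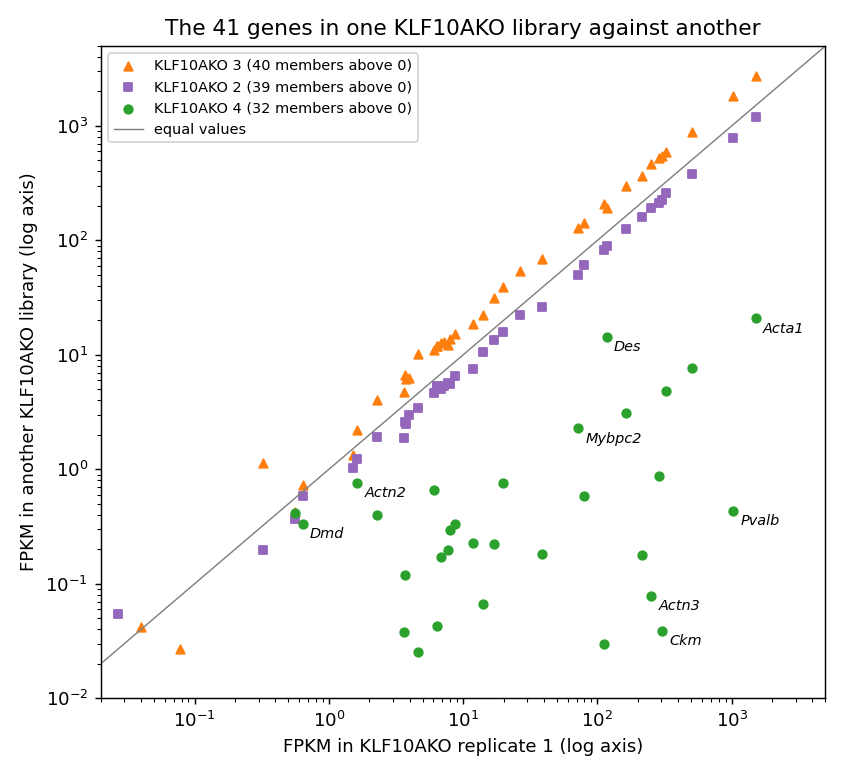
Each point is 1 of the 41 genes, FPKM in KLF10AKO replicate 1 (horizontal, log axis) against replicate 3, 2 or 4 (vertical, log axis), with genes at 0 in either library left out (40, 39 and 32 points). Replicates 3 and 2 run parallel to the line of equal values, while replicate 4 scatters from Dmd (52.2% of replicate 1) down to Ckm (0.0128%).

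Ratios of fast forms to slow, cardiac or other forms within a library pointed the same way in replicates 1 to 3. Actn3 to Actn2 was 155, 156, 210 and 0.103 in KLF10AKO replicates 1 to 4. In WT it rested on at most 10 reads per gene and library. Casq1 to Casq2 was 141, 168, 335 and 1.40 in KLF10AKO, against 2.99, 3.38, 4.69 and 7.63 in WT. Mybpc2 to Mybpc1 was 31.4, 26.1, 31.5 and 5.68 in KLF10AKO, while both had at most 3 reads in each WT library. In these pairs the fast form dominated in KLF10AKO replicates 1 to 3, and replicate 4 had the lowest of the 4 KLF10AKO ratios. For the other pairs compared, Mylpf to Myl2, Myl1 to Myl3 and Acta1 to Actc1, the partner had 0 reads in replicate 4, so no ratio was formed there. Acta1 to Actc1 was 4653, 6076 and 2422 in KLF10AKO replicates 1 to 3, overlapping WT replicates 1 to 3 at 4073, 4393 and 974.

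Other genes of the same machinery were measured in the same fit. Of 30 other sarcomere and triad genes, 26 were tested, 23 were called higher and 0 lower by limma, against 39.4% and 34.9% of all genes tested, with a median log2 change of 3.05 (0.05 over all genes). Of the 26, 19 passed the filter through KLF10AKO alone, and of the 7 with a WT mean of at least 0.5 FPKM, 5 were called higher and 2 were not called. Without KLF10AKO replicate 4, 25 were higher (37.6% of all genes), and with replicate 4 alone 8 were higher and 5 lower (32.4% and 29.7% of all genes). Tnnt3, the fast troponin that binds tropomyosin, stood at 996, 748, 1698 and 3.11 FPKM in KLF10AKO, against 0.634, 0.304, 0.295 and 0.473 FPKM in WT. Tpm1, a tropomyosin also made outside muscle, stood at 217, 166, 378 and 12.6 FPKM in KLF10AKO, against 19.6, 21.9, 20.4 and 19.6 FPKM in WT. As for Acta1, replicate 4 lay below the WT range of Tpm1. Of 15 further muscle energy genes, many of them also active in adipocytes, 6 were higher and 3 lower. After scaling to adipocyte markers 13 were higher and 1 lower, where 14250 of 16012 genes were called higher and 143 lower. As deposited, the share called higher was near the 39.4% of all genes and the share called lower under their 34.9%. Without KLF10AKO replicate 4 the counts were 10 and 3, against 37.6% and 34.3% of all genes. With replicate 4 alone against WT, the median log2 change of the 15 was -1.18, where that of all genes was 0.05.

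Markers of other fibre and cell types were read in the same libraries. Fast fibre markers summed to 2064, 1522, 3551 and 5.08 FPKM in KLF10AKO, against 0.896 to 1.08 FPKM in WT. Myh4, the fastest skeletal myosin, was at 492, 344, 829 and 0.00942 FPKM in KLF10AKO, and at 0.0779 to 0.133 FPKM in WT. Slow fibre markers were led by the widely expressed Tpm3 (58.7 to 71.8 FPKM in KLF10AKO and 37.4 to 40.8 FPKM in WT), and Myh7, the slow myosin, was at most 0.0428 FPKM in KLF10AKO and 0 in WT. Of the slow troponins, Tnnt1 stood at 0.591 to 0.926 FPKM in KLF10AKO and 0.164 to 0.393 FPKM in WT, and Tnni1 at 0.0586 to 0.307 FPKM in KLF10AKO and 0 to 0.0501 FPKM in WT. Tnnc1 overlapped between the groups, at 0.253 to 0.456 FPKM in KLF10AKO and 0.386 to 0.720 FPKM in WT. Of the 3 slow fibre markers tested, Tpm3 and Tnnt1 were called higher, against 39.4% of all genes tested, and Tnnc1 was not called. Tnnt1 passed the filter through KLF10AKO alone, so it had to differ. Markers of developing or regenerating fibres summed to 1.11, 0.780, 2.17 and 0.0559 FPKM in KLF10AKO, and to 0.0779 FPKM or less in WT. The satellite cell list, led by the endothelial and stromal gene Vcam1, summed to 9.59 to 10.1 FPKM in KLF10AKO and to 2.72 to 3.97 FPKM in WT, with Pax7 at most 0.0659 FPKM in KLF10AKO and 0 in WT. The cardiac list summed to 4.15 to 4.87 FPKM in KLF10AKO and to 0.844 to 1.50 FPKM in WT, led by Tnni3, the cardiac troponin I, at 3.74 to 4.60 FPKM in KLF10AKO and 0.554 to 1.10 FPKM in WT, the 1 cardiac marker tested, which was called higher. Tnnt2 stood at 0.150 to 0.263 FPKM in KLF10AKO and had 0 reads in WT, and Myl7 was at 0 in all 8 libraries. Of 5 smooth muscle genes tested 4 fell, against 34.9% of all genes called lower. After scaling to adipocyte markers 3 were higher and 1 lower, where 14250 of 16012 genes were called higher and 143 lower. That list summed to 109 to 137 FPKM in KLF10AKO and 440.0 to 665 FPKM in WT.

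Other lists separated the groups in all 4 KLF10AKO libraries, replicate 4 included. The 14 adipocyte markers were called lower, 14 of 14, against 34.9% of all genes tested, and summed to 6220, 6156, 6938 and 5404 FPKM in KLF10AKO, against 16442 to 18642 FPKM in WT. The 6 B cell markers were called higher, 6 of 6, against 39.4% of all genes tested, and summed to 1617, 1725, 1342 and 1967 FPKM in KLF10AKO, against 4.07 to 4.35 FPKM in WT. The 6 T cell markers were called higher too, 6 of 6, against the same 39.4%, and summed to 208 to 310.5 FPKM in KLF10AKO and 1.63 to 2.91 FPKM in WT. Of these, 3 B cell and 4 T cell markers passed the filter through KLF10AKO alone, so they had to differ. The 3 B cell and 2 T cell markers with a WT mean of at least 0.5 FPKM were also called higher. Among KLF10AKO libraries, replicate 3 had the highest sums of the 41 genes and of the adipocyte markers and the lowest of both lymphocyte lists, and replicate 4 the reverse. The part of these cell mixtures in the differences of the 41 genes was not tested.

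Counting of overlapping genes touches a few members. Exons of 16 of the 41 genes overlap another gene in GENCODE M21, and in 4 the overlap covers over 10% of the exon bases (Cacna1s 19.98%, Atp2a1 21.9%, Mb 31.9% and Ckm 15.5%), each time with a gene on the opposite strand. No source used here states whether the counting used strand, so reads of the pairs cannot be told apart. Tnnc2, the fast troponin C, was at or near 0 in each library (at most 0.138 FPKM in KLF10AKO and 0.167 FPKM in WT) beside Tnnt3, and 74% of its exon bases overlap those of Ube2c on the opposite strand.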

How the data were processed

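Poly(A)-selected RNA of iWAT was sequenced from 4 KLF10AKO and 4 WT mouse libraries, with fragments of 370 to 420 bp selected, per the labels' protocols. The submitters' processing notes name HISAT2 (2.0.5), edgeR (3.22.5), featureCounts (1.5.0-p3) and mm10. No source used here gives the role of each, the annotation or the use of strand. The values are FPKM, made and deposited by the authors. Multiplied by gene length, 100% of them were whole multiples of 1 read's worth (tolerance 0.01 reads), and the recovered reads ranged from 15537863 to 17499132 per library.

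Groups were compared with limma 3.58.1 (R 4.3.3, lmFit, eBayes with trend) on log2(FPKM + 0.5). The test covered 16012 genes with a mean of at least 0.5 FPKM, two-sided, with Benjamini-Hochberg adjustment over them and a threshold of 0.05. A log2 change on this scale understates that of low genes. The fit was also run on counts simulated around WT means. Those held no outlying library and no genes near 0 in WT, so that run does not bear on most members. Single genes and the read share had exact permutation tests. The 41 genes, the role, pathway and marker lists and the separate treatment of KLF10AKO replicate 4 were chosen with earlier results of these data known. Per-library values are given for the genes of highest mean in each role and those with at least 0.5 FPKM in each WT library; values of Actn2, Casq2 and Mb, and of Myh7, Tnnt1, Tnni1, Tnnc1, Myl7, Tnni3, Tnnt2, Pax7 and Tnnc2, were chosen after their values were seen. Promoters come from RefSeq (GRCm38.p6). Alternatives covered pseudocount, filter, scaling, variance model, recovered reads and left-out libraries.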

Additional observations from a re-analysis of the deposited data

Results flagged for a closer look

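In 9 of 74 group checks of a member's level, made on log2(FPKM + 0.5), 1 library stood further from the other 3 than Dixon's 95% limit for groups of 4 allows (chance gives about 1 in 20). The gap to the nearest library, as a share of the group's range on that scale, is given for each. In KLF10AKO, replicate 4 was the low library for Actn3 (0.866), Tcap (0.870), Myoz1 (0.845), Casq1 (0.8293), Atp2a1 (0.849), Pvalb (0.889) and Ckm (0.873). These 7 genes share that library, so the flags are not independent of each other. In WT, replicate 3 was the high library for Myom2, with a gap of 1 of its range (1 read in replicate 3 and 0 in the others), and the low library for Sgca (0.863), with 0 reads against 6 to 8. The cause was not tested for any of them.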

How the results depend on the processing

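Leaving out 1 library at a time gave 25 to 35 members called higher and 1 to 1 called lower, 5908 to 6259 and 5323 to 5622 calls over all genes, a member median of 2.44 to 3.94 and a difference in read share of 0.643 to 1.31 percentage points. The members called higher with all 8 libraries and in each of these fits numbered 25. Of them, all but Mylpf, Pygm and Des passed the filter of the fit of 8 through KLF10AKO alone, so they had to differ. Members called higher were 4 with limma-voom and 10 with KLF10AKO replicate 4 alone against WT. Members called lower were 0 at a minimum mean of 2 FPKM (which leaves Dmd out), 2 after quantile normalization, 0 with scaling to adipocyte markers and 9 with replicate 4 alone. The member median was 5.69 with limma-voom and -0.015 with replicate 4 alone. Over all genes, adipocyte scaling gave 14250 higher and 143 lower; medians of all genes moved to 1.53 with it, to 0.26 in TPM, to 0.27 with limma-voom and to -0.16 after quantile normalization. With adipocyte scaling Dmd turned to 0.29 and Casq2 to 0.62, both still under the median of all genes. Jph1 ranged from -0.093 (without KLF10AKO replicate 3) to 1.008 (without KLF10AKO replicate 4). With replicate 4 alone, the changes turned to -3.03 for Acta1, -2.41 for Myl1, -2.08 for Pvalb, -1.65 for Jph1, -1.55 for Casq1, -1.07 for Jph2, -1.05 for Ldb3 and -0.85 for Myom1. They turned to values near 0 for Mb (-0.15), Myoz3 (-0.15), Lmod3 (-0.14), Tcap (-0.11), Myoz1 (-0.10), Klhl41 (-0.074), Actn3 (-0.055), Myot (-0.043), Ckm (-0.015) and Xirp2 (-0.015), none of them called. Of these reversals, the cause was not tested.

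Whether the replicate numbers pair the libraries could not be decided. Deviations from the group means of libraries with the same number correlated at 0.0211, 0.00300, 0.0310 and 0.00810. KLF10AKO replicates 1, 3 and 4 correlated best with the WT library of their own number, and replicate 2 with WT replicate 1. Values this near 0 cannot show or exclude a pairing. A fit with the replicate block called 29 members higher and 1 lower, and 6220 and 5506 of all genes. Under the 100-base window the E-box share was 20% of member windows and 5.81% of all.

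At this depth a gene with 0 reads in a library can hold up to 3 reads, so low members of WT and of KLF10AKO replicate 4 rest on a few reads each.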

Other observations

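Several of the members that KLF10AKO replicate 4 holds above WT lie next to genes that are high in each KLF10AKO library. The neighbours were looked up after the values were seen, within 5 kb, and counted where their level in replicate 4 was at least 5 FPKM and at least 2 times the WT mean. Such a protein-coding neighbour was found for 5 of the 12 members above the WT range in replicate 4, and for 0 of the other 29. That 0 depends on the limit of 5 FPKM. Pgap3 near Tcap (2.37 FPKM in replicate 4), Klc3 near Ckm (0.428 FPKM) and Ccdc63 overlapping Myl2 (0.0231 FPKM) fell under it. They stood at 2.41, 7.70 and 2.03 times their WT means. Only 6 of the 12 and 16 of the 29 had any protein-coding neighbour within that distance. The share over all genes was not measured, so these counts have no background. Sept1, 149 bp from Mylpf on the opposite strand, stood at 71.9, 78.3, 63.0 and 90.4 FPKM in KLF10AKO replicates 1 to 4, against 2.32 to 3.13 FPKM in WT. Spib, a lymphocyte transcription factor 1337 bp from Mybpc2, stood at 68.8, 71.6, 56.7 and 87.3 FPKM in KLF10AKO, against 0.0950 to 0.209 FPKM in WT. Map4k1, a kinase of blood cells 65 bp from Ryr1, stood at 47.9, 48.5, 39.4 and 54.7 FPKM in KLF10AKO, against 2.84 to 3.46 FPKM in WT. Rasgrp2 (881 bp from Pygm) stood at 24.1 FPKM and Rabep2 (overlapping Atp2a1) at 18.2 FPKM in KLF10AKO replicate 4, with WT means of 6.99 and 6.24 FPKM. Among the fast fibre markers, Tnnt3 has Lsp1 at 3969 bp, which stood at 66.5, 70.7, 54.6 and 81.3 FPKM in KLF10AKO, against 5.78 to 7.33 FPKM in WT. In these neighbours replicate 4 was the highest KLF10AKO library and replicate 3 the lowest, the reverse of the order of the muscle genes. The other 7 members above WT in replicate 4 (Neb, Mybpc1, Ttn, Actn2, Trdn, Ampd1 and Des) had no such neighbour. Nor did the fast fibre marker Tnni2, at 1.85 FPKM in replicate 4, against 0.178 to 0.402 FPKM in WT. Its neighbour Syt8, 1412 bp away, was at 0 FPKM in replicate 4. Whether reads of a neighbour were counted to a member was not tested.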
